A study of Mus musculus with 8 samples.

Results

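The genes described here encode the subunits of the oxidative phosphorylation system, complexes I to V of the mitochondrial inner membrane. They were chosen by symbol: protein-coding genes of the Nduf, Sdh, Uqcr, Cyc1, Cox4 to Cox8 and Atp5 series, and the mt-Nd, mt-Co, mt-Cytb and mt-Atp genes of the mitochondrial genome. The rule found 89 of the 15693 genes in the count table, 81 of them encoded in the nucleus and 8 in mitochondrial DNA. Complex I had 37 nuclear and 6 mitochondrially encoded members, complex II 4 nuclear members, complex III 9 nuclear members and mt-Cytb, complex IV 14 nuclear members and mt-Co1, and complex V 17 nuclear members. A further 10 annotated genes that match the rule had no row in the count table: Cox7a1, Cox7b2, Cox8b, Cox8c, mt-Atp6, mt-Atp8, mt-Co2, mt-Co3, mt-Nd4l and a second identifier of Atp5o. Values given for the mitochondrially encoded members therefore leave out those mt genes, and with them complex V. No member was removed by the filter on low counts. The symbols place Ndufa4 with complex I, although its protein is now counted as a subunit of complex IV.

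Libraries of polyadenylated RNA came from whole brain cortex of 4 TDP-43Q331K mice and 4 wild-type (WT) mice, in work on how motor cortex drives muscle in this model of amyotrophic lateral sclerosis (ALS). TDP-43 is an RNA-binding protein, and the line carries a mutation of it that is linked to ALS. All mice were 4 months old and all libraries belonged to batch 1. For the WT mice the sample labels give the genotype C57BL/6J, whereas the series text names c57bl6/n. The labels do not say how the TDP-43Q331K line was made, which promoter drives any added sequence, or whether each library came from its own animal, so the p-values measure the spread between these libraries. Libraries held 45253021 to 58115164 counts, so 1 CPM (counts scaled to a common library size, with factors from the trimmed mean of M-values, TMM) stood for 45.3 to 58.0 counts. All 12 neuron markers examined were detected, and together they held 10350 to 11370 CPM in TDP-43Q331K libraries and 11140 to 11800 CPM in WT libraries.

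Complexes I and II pass electrons from NADH and succinate to ubiquinone, complex III passes them on to cytochrome c, and complex IV hands them to oxygen. Complexes I, III and IV pump protons across the inner membrane, and complex V, the ATP synthase, uses the gradient to make ATP. Apart from complex II, whose subunits are all nuclear, the complexes are built from both genomes, and neurons depend on them to fuel ion pumping and synaptic transmission.

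The nuclear members moved together across libraries, as described further on. The starts of a few of them are shown here for description. Whether a motif in them relates to that movement was not tested. RefSeq promoters (build GRCm38.p6), from 250 bases before to 50 bases after a gene's start, could be matched by symbol for 63 of the 81 nuclear members. A motif of nuclear respiratory factor 1 (NRF-1), GCGCA and GCGC with any base between them, was found on either strand in 17 of the 63 (27%), and in 5.19% of the 27025 genes in the table of promoters. AANATGGC, a YY1 motif, was found in 16 of the 63 (25.4%) and in 6.96% of all genes. CCGGAAGT, an ETS motif, was found in 5 (7.94%) and in 4.31% of all genes, and TCAAGGTCA, a motif of the oestrogen-related receptors, in 2 (3.17%) and in 0.466%. These are matches of letters, not tested sites. The sequences below are those of the 2 complex IV genes with the smallest p in the comparison of genotypes, Cox6a1 (chr5:115348909-115349208, minus strand) and Cox8a (chr19:7217567-7217866, minus strand), and of Atp5b (chr10:128083057-128083356, plus strand) and Sdha (chr13:74350191-74350490, minus strand), the genes of complexes V and II with the highest level per length. They run 5′ to 3′ along the gene's strand, and capitals mark the matches: NRF-1 in Cox6a1 and Sdha, ETS in Cox8a and YY1 in Atp5b.
Cox6a1: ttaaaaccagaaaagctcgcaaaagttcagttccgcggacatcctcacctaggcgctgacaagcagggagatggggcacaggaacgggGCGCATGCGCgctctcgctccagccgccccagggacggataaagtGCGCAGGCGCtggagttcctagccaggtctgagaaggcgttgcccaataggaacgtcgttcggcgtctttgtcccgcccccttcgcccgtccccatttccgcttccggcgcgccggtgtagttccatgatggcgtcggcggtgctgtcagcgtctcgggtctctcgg
Cox8a: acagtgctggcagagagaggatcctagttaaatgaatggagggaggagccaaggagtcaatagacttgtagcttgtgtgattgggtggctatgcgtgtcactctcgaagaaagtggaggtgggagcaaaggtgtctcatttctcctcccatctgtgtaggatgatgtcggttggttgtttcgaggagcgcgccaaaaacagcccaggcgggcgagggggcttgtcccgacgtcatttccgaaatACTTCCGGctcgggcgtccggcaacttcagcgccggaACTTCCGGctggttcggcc
Atp5b: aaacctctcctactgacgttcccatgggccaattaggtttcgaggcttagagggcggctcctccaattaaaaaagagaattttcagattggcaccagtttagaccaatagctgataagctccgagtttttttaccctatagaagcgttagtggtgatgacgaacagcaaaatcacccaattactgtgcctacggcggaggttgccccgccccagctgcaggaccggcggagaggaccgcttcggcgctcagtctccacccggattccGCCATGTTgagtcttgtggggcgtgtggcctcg
Sdha: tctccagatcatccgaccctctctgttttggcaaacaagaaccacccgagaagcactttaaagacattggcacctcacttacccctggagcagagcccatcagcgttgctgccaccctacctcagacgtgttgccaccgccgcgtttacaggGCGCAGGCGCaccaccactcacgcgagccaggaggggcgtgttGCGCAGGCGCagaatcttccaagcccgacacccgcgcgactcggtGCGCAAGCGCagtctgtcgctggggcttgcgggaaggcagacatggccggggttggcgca

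Subunit transcripts spanned several orders of magnitude, and the mitochondrially encoded ones were by far the most abundant. On a scale of CPM per kilobase of principal transcript, mt-Co1, the catalytic core of complex IV, stood highest at 12100 ± 382 in TDP-43Q331K and 11590 ± 653 in WT (SD, n = 4 each). mt-Nd1, a membrane subunit of complex I, was at 6183 ± 194 in TDP-43Q331K and 6554 ± 359 in WT on the same scale, and mt-Cytb, which carries the quinone sites of complex III, at 6021 ± 108 and 6330 ± 204. mt-Nd3 was the exception, at 2.95 ± 0.612 in TDP-43Q331K and 2.92 ± 0.800 in WT, far below its neighbours. It matches the pseudogene Gm28438 at 99.71% identity over 345 bases, so that its count is uncertain.

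Among nuclear members, the medians per kilobase were lowest in complexes I and II and highest in complexes IV and V. They were 66.6 CPM per kilobase in TDP-43Q331K and 69.3 in WT for complex I, 66.2 and 70.6 for complex II, 95.6 and 94.8 for complex III, 142 and 156 for complex IV, and 134 and 140 for complex V. The leading gene of each complex was the same in both genotypes. Atp5b, the catalytic beta subunit of ATP synthase, led complex V at 503 ± 21.3 in TDP-43Q331K and 503 ± 38.5 in WT (CPM per kilobase, SD, n = 4 each). Cox8a, a small membrane subunit, led complex IV at 437 ± 32.1 in TDP-43Q331K and 517 ± 55.1 in WT. Ndufa4 led the Nduf series at 361 ± 23.9 and 382 ± 40.4, Uqcrh, the hinge protein of complex III, its complex at 209 ± 15.3 and 211 ± 25.7, and Sdha, the flavoprotein that oxidises succinate, complex II at 140 ± 2.46 and 134 ± 3.19.

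**Figure D1:**
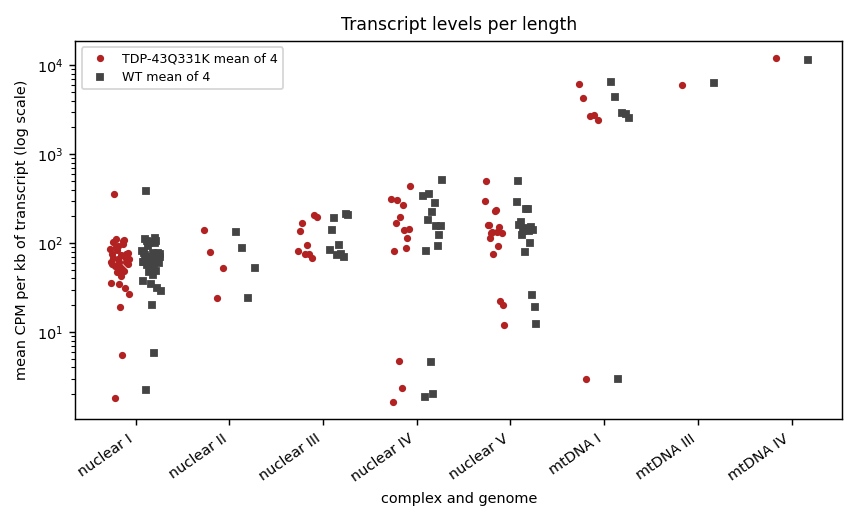
Mean level per length of each subunit gene (CPM per kilobase of principal transcript, log axis) by complex and genome, with TDP-43Q331K means as circles and WT means as squares (4 libraries each). The mitochondrially encoded genes lie above every nuclear gene except for mt-Nd3, at 2.95 in TDP-43Q331K and 2.92 in WT.

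Taken over the library as a whole, the 8 mitochondrially encoded members held 4.61 ± 0.0456% of the counts in TDP-43Q331K and 4.62 ± 0.0895% in WT (SD, n = 4 each). The 81 nuclear members held 0.842 ± 0.0426% in TDP-43Q331K and 0.864 ± 0.0718% in WT. Both differences were smaller than the spread between libraries. The share of the nuclear members was 0.818%, 0.902%, 0.807% and 0.842% in TDP-43Q331K replicates 1 to 4, against 0.849%, 0.809%, 0.968% and 0.828% in WT replicates 1 to 4. WT replicate 3 was the highest of all and TDP-43Q331K replicate 2 the next, and the groups overlapped.

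That pattern ran through nearly all the nuclear genes. Each gene's log2(CPM + 0.5) was set against its mean over the 8 libraries, and these deviations were averaged over the 81 nuclear members. The averages were -0.043, 0.072, -0.11 and -0.032 in TDP-43Q331K replicates 1 to 4, and 0.0080, -0.061, 0.21 and -0.036 in WT replicates 1 to 4. WT replicate 3 thus stood 1.18-fold above the mean of the other WT libraries. It was the highest of the 8 libraries in 68 of the 81 nuclear members (84.0%), where this held for 15.7% of all genes. TDP-43Q331K replicate 3 was the lowest in 49 of them, where this held for 12.8% of all genes. The mean deviation of WT replicate 3 was above 0 in all complexes, at 0.21 for complex I, 0.13 for II, 0.23 for III, 0.18 for IV and 0.23 for V.

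**Figure D2:**
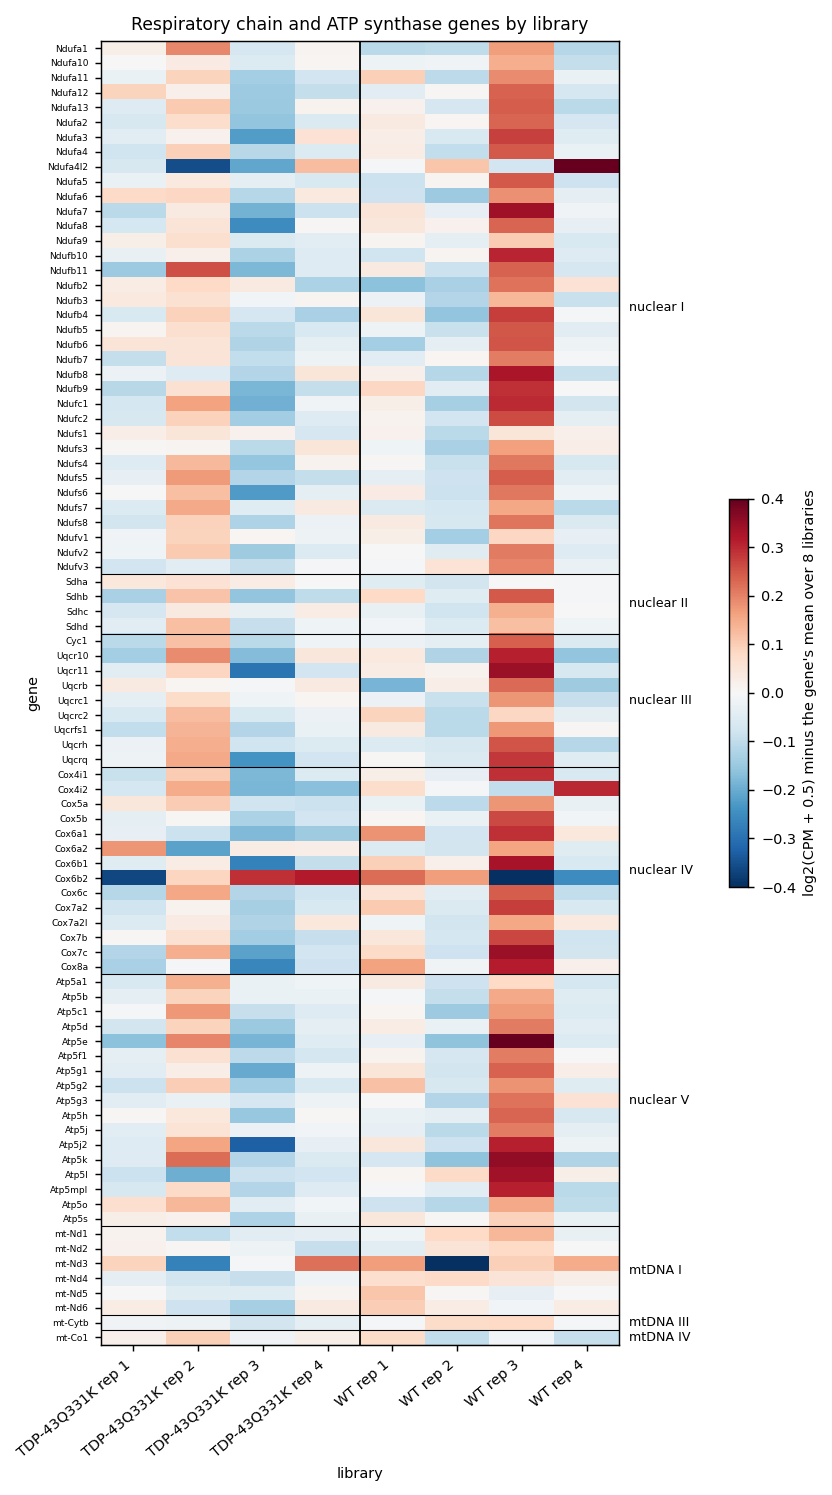
Deviation of log2(CPM + 0.5) from the gene's mean over 8 libraries, for the 89 genes but 1 (rows, by complex and genome) in the 4 TDP-43Q331K and 4 WT libraries (columns); the colours stop at the ends of the scale. The column of WT replicate 3 is red through the nuclear genes, of which it is the highest library in 68 of 81, and pale in the mitochondrially encoded genes.

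The mitochondrially encoded members did not follow. Without mt-Nd3, which is at about 1 CPM, their average deviations were 0.0050, -0.032, -0.060 and -0.016 in TDP-43Q331K replicates 1 to 4, and 0.040, 0.032, 0.041 and -0.010 in WT replicates 1 to 4. WT replicate 3 stood 1.015-fold above the mean of the other WT libraries on this measure. The next measure takes in all members, mt-Nd3 included. The mean log2 CPM of the mitochondrially encoded minus that of the nuclear members was 4.92, 4.72, 4.92 and 4.90 in TDP-43Q331K, against 4.91, 4.89, 4.70 and 4.90 in WT. It averaged 4.865 ± 0.0943 in TDP-43Q331K and 4.85 ± 0.1003 in WT (SD, n = 4 each), a difference smaller than the spread. In each genotype 1 library stood low, TDP-43Q331K replicate 2 and WT replicate 3, the same libraries in which the nuclear genes were high.

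Other measures moved with these libraries. The 72 cytosolic ribosomal protein genes, which are also short and abundant, deviated by -0.14, 0.066, -0.13 and -0.032 in TDP-43Q331K and by 0.056, -0.036, 0.24 and -0.022 in WT (mean log2). Genes were also classed by the length of their merged exons, over all annotated transcripts of a gene. In WT replicate 3 the median deviation was 0.098 over the 477 genes of up to 1000 bases and -0.054 over the 2688 genes above 8000 bases. Of the nuclear members, 19 fall in the shortest class and 32 in the next, up to 2000 bases. Markers of tissues beside the cortex also varied by library. The 8 choroid plexus markers summed to 49.1 to 596 CPM in TDP-43Q331K and 18.7 to 413 CPM in WT, and the 8 striatal markers to 425 to 908 CPM and 331.2 to 941 CPM, WT replicate 3 being the lowest library for both. Their part in the result was not tested.

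**Figure D3:**
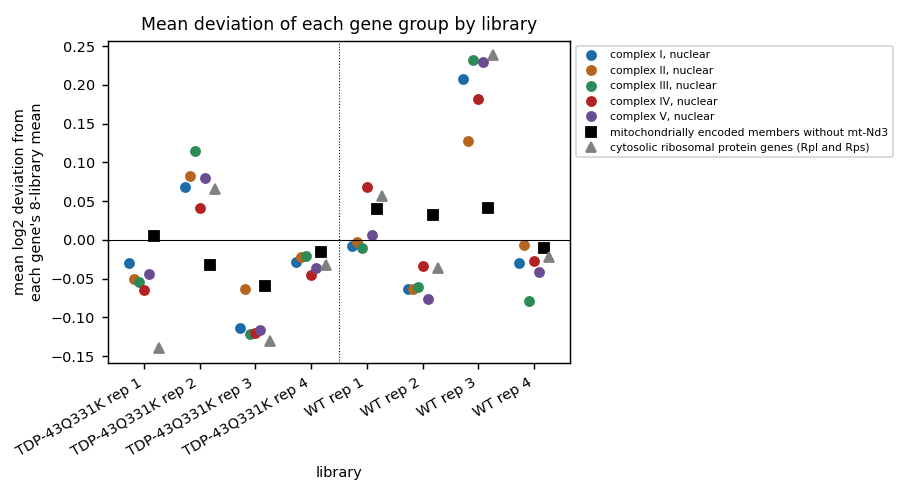
Mean log2 deviation from each gene's mean over 8 libraries (y axis) for the nuclear members of each complex (circles), the mitochondrially encoded members without mt-Nd3 (squares) and 72 cytosolic ribosomal protein genes (triangles), by library. In WT replicate 3 the complexes lie at 0.13 to 0.23 and the ribosomal protein genes at 0.24, above the mitochondrially encoded genes at 0.041.

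The genotypes were compared to find transcripts that differ in mutant cortex. No oxidative phosphorylation gene passed edgeR's quasi-likelihood test at an adjusted p under 0.05 (Benjamini-Hochberg over 15693 genes), where 0.943% of all genes did (0.344% higher and 0.599% lower in TDP-43Q331K). The lowest adjusted p of a member was 0.147, for mt-Nd4. At an unadjusted p under 0.05, edgeR found 5 members lower (mt-Nd4, Cox8a, Cox6a1, Atp5l and Cox6b1) and 0 higher. The background at that level was 15.7% of all genes, 7.77% lower and 7.91% higher, and the 5 members are 5.62% of 89. limma-voom and limma-trend called 0 members, and their counts over all genes are not given here. DESeq2 called 1, mt-Nd4, which was lower, where it called 4.47% of all genes (2.63% lower). The groups did not overlap in 4 members, with mt-Nd4, mt-Cytb and Atp5l lower and Sdha higher in TDP-43Q331K, against 9.68% of all genes (5.19% lower and 4.49% higher).

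The intervals bound how large a change could have been missed. The 95% interval of the fold change lay within 1.25-fold in either direction for 74 of the 89 genes, 67 nuclear and 7 mitochondrially encoded, and within 1.5-fold for 87. The share was lowest in complex IV, where 8 of 14 nuclear members lay within 1.25-fold. In whole tissue, fewer cells of a type and less RNA per cell cannot be told apart. Of the 12 neuron markers, 9 had a log2 fold change below 0, with a median of -0.079. All 8 oligodendrocyte markers (median 0.10), all 11 markers of thalamus and olfactory bulb (median 0.70) and all 8 choroid plexus markers (median 1.16) were above 0. Those of thalamus and olfactory bulb summed to 246.5 to 327 CPM in TDP-43Q331K and 163 to 250.5 CPM in WT. Their mean log2 deviations were 0.088, 0.475, 0.284 and 0.531 in TDP-43Q331K replicates 1 to 4. In WT replicates 1 to 4 they were -0.871, -0.886, 0.267 and 0.112. Those of the choroid plexus markers were -0.661, 0.768, 0.381 and 1.808 in TDP-43Q331K, and 1.163, -1.188, -1.346 and -0.925 in WT. Prkcd was at 67.7 CPM in TDP-43Q331K replicate 4 and at 9.48 to 16.4 CPM in replicates 1 to 3. Slc17a6 was at 33.2 to 50.0 CPM in TDP-43Q331K and 25.7 to 31.7 CPM in WT. Of 8 microglia markers, 7 were below 0, with a median of -0.070. None of these markers passed edgeR's test (lowest adjusted p 0.0678, Nrgn). DESeq2 called Nrgn (adjusted p 0.000650), Stmn2 (0.00656) and P2ry12 (0.00744) lower and Slc17a6 (0.0146) higher. Their part in the members' values was not tested.

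Small differences below 0 prevailed in all 5 complexes. The log2 fold change was below 0 in 71 of the 89 members, with a median of -0.062, against 48.2% of all genes and a median of 0.0045. The nuclear members (65 of 81 below 0) and the mitochondrially encoded ones (6 of 8) had nearly the same median, -0.062 and -0.059. By complex, the nuclear median was -0.056 in complex I (29 of 37 below 0), -0.018 in II (3 of 4), -0.042 in III (7 of 9), -0.12 in IV (12 of 14) and -0.079 in V (14 of 17). The difference between complexes was not tested. A lean below 0 was also present in short genes at large. Among genes of at least 1 CPM, the median was -0.057 for merged exons of up to 1000 bases and -0.041 from there to 2000 bases. Nuclear members in those classes had -0.071 and -0.079. From 2000 to 4000 and from 4000 to 8000 bases, genes had -0.010 and 0.014, and nuclear members -0.030 and -0.052.

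For the nuclear genes this direction rested on WT replicate 3. Without it, the nuclear median was 0.014, 38 of 81 were below 0, against 47.9% of all genes, and 27 had changed sign. The medians were then 0.027 in complex I, 0.025 in II, 0.015 in III, -0.032 in IV (11 of 14 below 0) and 0.014 in V. The mitochondrially encoded median was -0.055 without that library, with 6 of 8 still below 0. With both WT replicate 3 and TDP-43Q331K replicate 2 left out, a choice made after the data were seen, the nuclear median was -0.030 (53 of 81 below 0) and that of complex IV -0.080. With a per-library offset for the length of each gene's merged exons, the nuclear median was -0.029 (56 of 81) and the mitochondrially encoded one -0.018.

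**Figure D4:**
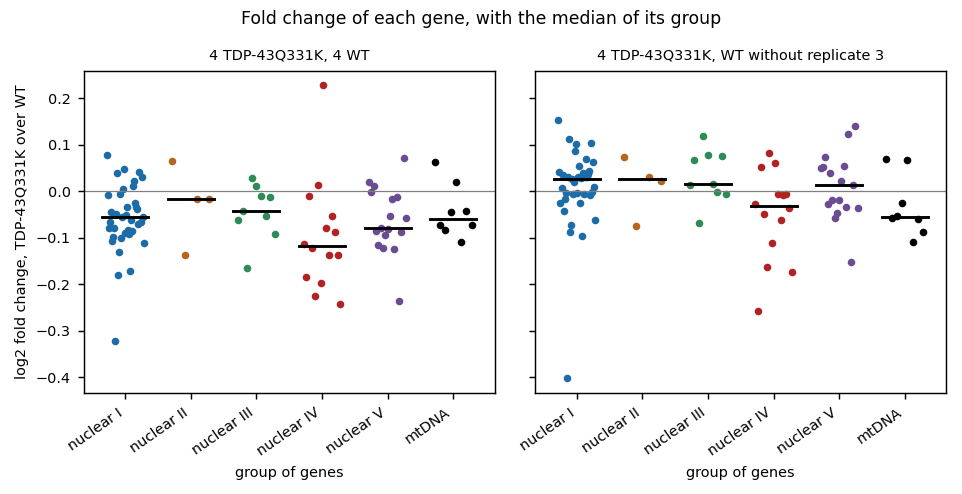
Log2 fold change of each gene, TDP-43Q331K over WT, by complex and genome, with horizontal bars at the medians, for all 8 libraries (left) and without WT replicate 3 (right). The nuclear medians of complexes I, II, III and V lie at -0.079 to -0.018 on the left and at 0.014 to 0.027 on the right, and that of complex IV at -0.12 and -0.032.

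Complex I, the NADH dehydrogenase, held the member with the smallest p. mt-Nd4, which encodes a membrane subunit of the proton-pumping arm, was at 3725, 3630, 3581 and 3767 CPM in TDP-43Q331K, against 3995, 4025, 3954 and 3875 CPM in WT. Every TDP-43Q331K library was below every WT library, and WT replicate 3 did not stand out. The log2 fold change was -0.11 (SE 0.033, 95% interval -0.18 to -0.036), with an edgeR adjusted p of 0.147 and a DESeq2 adjusted p of 0.0278. Over the 12 alternatives that keep all libraries its adjusted p ran from 0.0278 to 0.407, and over the 8 fits that each leave out 1 library from 0.168 to 0.366, with the log2 fold change between -0.12 and -0.096. A stretch of 876 bases of mt-Nd4 is identical to the pseudogene Gm28439, so that reads from either could be counted with it.

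The other mitochondrially encoded subunits of complex I had smaller differences, with edgeR adjusted p of 0.381 (mt-Nd1) or more. mt-Nd1 averaged 5917 ± 186 CPM in TDP-43Q331K and 6272 ± 344 CPM in WT (SD, n = 4 each), a log2 fold change of -0.084, or -0.053 without WT replicate 3. mt-Nd2, mt-Nd5 and mt-Nd6, also of the membrane arm, had log2 fold changes of -0.046, -0.043 and -0.073, and mt-Nd3, at about 1 CPM, 0.019 with an interval of -0.53 to 0.57. mt-Nd5 and mt-Nd6 lie on opposite strands and overlap in the annotation, and the sources used here do not give the strand setting of the counting.

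None of the 37 nuclear subunits of complex I had an unadjusted p under 0.05. The smallest belonged to Ndufa7, an accessory subunit, at 46.7, 51.7, 44.1 and 47.5 CPM in TDP-43Q331K, against 52.2, 49.3, 64.0 and 49.9 CPM in WT. The groups overlapped, and WT replicate 3 was the highest. Its log2 fold change of -0.18 (edgeR adjusted p 0.336) was -0.087 without that library. Ndufb9, an accessory subunit of the membrane arm, had -0.17 (adjusted p 0.337) and -0.096 without WT replicate 3, and Ndufv3, of the NADH-binding module, -0.11 (adjusted p 0.370) and -0.063. Among core subunits that bind NADH or carry iron-sulphur clusters, log2 fold changes were 0.030 for Ndufv1, -0.056 for Ndufv2, 0.012 for Ndufs1, 0.040 for Ndufs7 and -0.067 for Ndufs8. Without WT replicate 3 they were 0.063, 0.0086, 0.030, 0.10 and -0.0019, in the same order.

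Complex II, succinate dehydrogenase, held the nuclear member whose groups separated with TDP-43Q331K the higher. Sdha was at 409, 414, 405 and 397 CPM in TDP-43Q331K, against 384, 378, 397 and 396 CPM in WT. All TDP-43Q331K libraries were above all WT libraries, the closest 2 being TDP-43Q331K replicate 4 at 397.1 and WT replicate 3 at 396.8 CPM. The log2 fold change was 0.064 (SE 0.041, edgeR adjusted p 0.486), and it ran from 0.051 to 0.075 over the 8 fits that each leave out 1 library. Sdhb, the iron-sulphur subunit, pointed the other way without passing the test, at 87.5, 104, 85.7 and 89.3 CPM in TDP-43Q331K and 101, 92.6, 114 and 95.5 CPM in WT (log2 fold change -0.14, adjusted p 0.416, and -0.075 without WT replicate 3). The membrane anchors Sdhc and Sdhd each had a log2 fold change of -0.018, and 0.030 and 0.021 without that library.

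In complex III, the cytochrome bc1 complex, the mitochondrial member again separated the groups and the nuclear ones did not. mt-Cytb was at 6994, 6960, 6717 and 6880 CPM in TDP-43Q331K, against 7045, 7430, 7457 and 7033 CPM in WT. The 2 groups met without overlapping, and the log2 fold change was -0.072 (SE 0.033, edgeR adjusted p 0.320). Uqcr11, a small accessory subunit, had -0.17 (adjusted p 0.445), with 75.6 ± 8.09 CPM in TDP-43Q331K and 84.8 ± 11.3 CPM in WT (SD, n = 4 each), and -0.068 without WT replicate 3. Uqcrc1 and Uqcrc2, the core proteins, had 0.011 and -0.011, Uqcrfs1, the Rieske iron-sulphur protein, -0.053, and Cyc1, cytochrome c1, -0.062. Without WT replicate 3 these 4 were at 0.077, 0.015, -0.0020 and 0.014.

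Complex IV, cytochrome c oxidase, held 3 of the 5 members with an unadjusted p under 0.05, all of them small nuclear subunits. They are 21.4% of its 14 nuclear members, where 15.7% of all genes passed that level in edgeR (7.77% lower). Without WT replicate 3, 2 of the 14 were lower at that level, against 1170 of all 15693 genes. Cox8a was at 238, 260, 217 and 246 CPM in TDP-43Q331K, against 291, 258, 324 and 264 CPM in WT. WT replicate 3 was the highest library, TDP-43Q331K replicate 3 the lowest, and the groups overlapped only in that TDP-43Q331K replicate 2 was above WT replicate 2. The log2 fold change was -0.24 (SE 0.079, 95% interval -0.42 to -0.068), with an edgeR adjusted p of 0.173, and -0.17 without WT replicate 3 (adjusted p 0.282). Cox6a1, the widely expressed form of subunit VIa, was at 182, 175, 165 and 168 CPM in TDP-43Q331K, against 211, 176.5, 228 and 191 CPM in WT. Its groups overlapped at WT replicate 2, which lay below TDP-43Q331K replicate 1. Its log2 fold change, -0.23 (SE 0.074, edgeR adjusted p 0.177), was -0.16 without WT replicate 3 (adjusted p 0.291).

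Cox6b1, the subunit VIb that faces the intermembrane space, was at 124, 132, 107 and 120.5 CPM in TDP-43Q331K, against 138, 131, 162 and 123 CPM in WT. Here the overlap was wider, and the log2 fold change of -0.20 (edgeR adjusted p 0.311) was -0.11 without WT replicate 3. Cox4i1, the main regulatory subunit, and Cox5a and Cox5b had log2 fold changes of -0.11, -0.0098 and -0.12, and of -0.028, 0.052 and -0.048 without WT replicate 3. mt-Co1, at the centre of the complex, differed in direction from most of them: it was at 18550, 19520, 18120 and 18580 CPM in TDP-43Q331K, against 19230, 17090, 18150 and 17150 CPM in WT. The groups overlapped, and the log2 fold change was 0.062 (SE 0.041, edgeR adjusted p 0.501). mt-Co1 matches the pseudogene Gm13340, which has its own row in the table, at 97.605% identity over 1545 bases.

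In complex V, the ATP synthase, no subunit of the catalytic head passed the test. Atp5b, its beta subunit, was at 939.5, 1024, 945 and 944 CPM in TDP-43Q331K, against 956, 901, 1070.0 and 931 CPM in WT, with TDP-43Q331K replicate 2 and WT replicate 3 as the high libraries. The log2 fold change was -0.0020, with a 95% interval of -0.13 to 0.13. Of the other head subunits, Atp5a1 and Atp5c1 (alpha and gamma) had 0.020 and 0.011, and Atp5d and Atp5e (delta and epsilon) -0.086 and -0.12. Without WT replicate 3 these 4 were at 0.050, 0.073, -0.028 and 0.040. Atp5l, subunit g of the membrane part, was at 12.4, 11.4, 12.3 and 12.4 CPM in TDP-43Q331K, against 13.2, 13.9, 16.7 and 13.4 CPM in WT. The groups did not overlap, and the log2 fold change was -0.24 (SE 0.084, edgeR adjusted p 0.206), or -0.15 without WT replicate 3. Transcripts of 13 other genes match Atp5l closely, with identity of 90% or more across 50% or more of the length, so this count is uncertain.

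**Figure D5:**
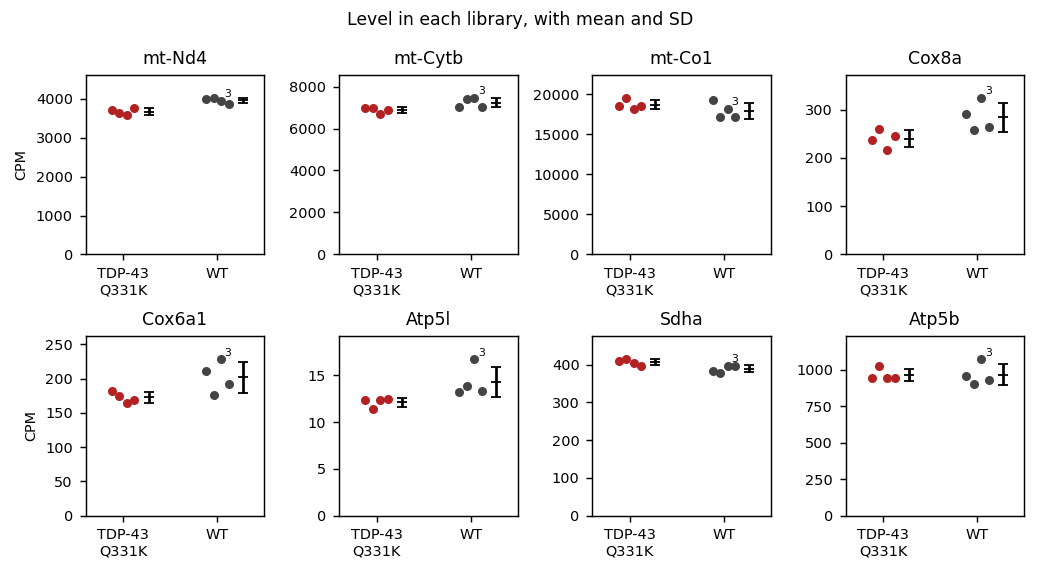
Level in each library (CPM, y axis from 0) of 8 members, TDP-43Q331K to the left of WT, with bars for mean and SD of 4 libraries; the 3 marks WT replicate 3. The groups do not overlap in mt-Nd4, mt-Cytb, Atp5l and Sdha, and WT replicate 3 is the highest WT library in all but mt-Nd4 and mt-Co1, by a small margin in mt-Cytb and Sdha.

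Such close copies concern 27 members, 21 nuclear and 6 mitochondrially encoded. The median log2 fold change was -0.062 in the 21 nuclear members with a copy and -0.059 in the 60 without. Exons of 35 members overlap another annotated gene, 29 of them on the opposite strand, among them Cox4i1, Atp5a1 and Atp5o.

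Isoforms typical of other tissues were scarce in both genotypes. The percentages here and in the next paragraph compare CPM per kilobase of principal transcript. Cox4i2, the form of lung and of oxygen-sensing cells, was at 0.524 ± 0.0439% of Cox4i1 in TDP-43Q331K and 0.565 ± 0.142% in WT (SD, n = 4 each). Cox6a2, the form of heart and skeletal muscle, was at 1.56 ± 0.189% of Cox6a1 in TDP-43Q331K and 1.32 ± 0.0880% in WT. Its own log2 fold change was 0.014 (edgeR adjusted p 0.972), and the 5 muscle markers detected summed to 13.3 to 15.4 CPM in TDP-43Q331K and 13.5 to 14.7 CPM in WT. Cox6b2, the testis form, was at 1.22 ± 0.405% of Cox6b1 in TDP-43Q331K and 0.916 ± 0.332% in WT, and Ndufa4l2, known to be induced by hypoxia, at 0.502 ± 0.108% and 0.601 ± 0.169% of Ndufa4. All 4 percentages overlapped between the groups. For Cox6a2 the percentages were 1.68, 1.28, 1.65 and 1.61 in TDP-43Q331K, against 1.20, 1.42, 1.32 and 1.34 in WT, with TDP-43Q331K replicate 2 inside the WT range.

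Cox7a2l was at 63.0 ± 1.91% of Cox7a2 in TDP-43Q331K and 59.7 ± 4.396% in WT, per kilobase. Before scaling by length, Cox7a2l averaged 95.3 CPM in TDP-43Q331K and 98.8 CPM in WT, and Cox7a2 92.6 and 101.8 CPM. The c subunit of ATP synthase, which forms the rotor ring, is made from 3 genes that encode the same mature protein. Per kilobase, Atp5g1 was at 58.8 ± 3.15% of Atp5g3 in TDP-43Q331K and 60.5 ± 1.59% in WT, and Atp5g2 at 32.9 ± 2.10% and 33.3 ± 2.32%. The log2 fold changes of Atp5g1, Atp5g2 and Atp5g3 were -0.12, -0.094 and -0.082, and none passed edgeR's test (adjusted p 0.434 to 0.577). They were -0.059, -0.047 and -0.019 without WT replicate 3.

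Genes that serve these complexes were examined as lists, and none passed edgeR's test in either direction. Assembly factors had median log2 fold changes of 0.013 for complex I (17 genes), -0.028 for II (4), -0.033 for III (6), -0.079 for IV (19) and 0.024 for V (3). Without WT replicate 3 these medians were 0.055, 0.0019, 0.0067, -0.050 and 0.028, so that those of complexes II and III changed sign. Enzymes of the tricarboxylic acid cycle and pyruvate dehydrogenase (17 genes) had a median of -0.0073, and genes of cristae organisation (8) one of -0.023. Both changed sign without WT replicate 3, to 0.028 and 0.0054.

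Of 29 genes of mitochondrial DNA expression, 18 had a log2 fold change above 0 and 11 below 0 (48.2% of all genes were below 0), with a median of 0.032. At an unadjusted p under 0.05, 4 of the 29 were higher and 0 lower, where 7.91% of all genes were higher. Pnpt1, an RNA processing enzyme of mitochondria, was at 35.4, 31.4, 31.4 and 31.9 CPM in TDP-43Q331K, against 27.8, 28.7, 28.8 and 25.4 CPM in WT. The groups did not overlap, and the log2 fold change was 0.23 (SE 0.062, edgeR adjusted p 0.114, DESeq2 adjusted p 0.0311). Lrpprc, which stabilises mitochondrial messenger RNAs, had 0.14 (edgeR adjusted p 0.183), with 81.6 ± 1.92 CPM in TDP-43Q331K and 74.0 ± 4.20 CPM in WT (SD, n = 4 each), and Gfm1, an elongation factor of mitochondrial translation, 0.15 (edgeR adjusted p 0.159).

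Of 19 regulators of respiratory genes, 13 were above 0 and 6 below 0 (48.2% of all genes were below 0), with a median of 0.096. At an unadjusted p under 0.05, 5 of the 19 were higher and 0 lower, where 7.91% of all genes were higher. Ppargc1a, a coactivator of mitochondrial biogenesis, was at 69.8, 71.3, 68.0 and 63.0 CPM in TDP-43Q331K, against 57.4, 57.3, 66.4 and 65.1 CPM in WT. The groups overlapped, and the log2 fold change was 0.15 (edgeR adjusted p 0.295). Perm1, a regulator acting with it in muscle, had 0.29 (edgeR adjusted p 0.196) at 4.50 ± 0.367 CPM in TDP-43Q331K and 3.68 ± 0.236 CPM in WT (SD, n = 4 each), and the nuclear receptor Ppard 0.13 (edgeR adjusted p 0.265).

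Among carriers and enzymes outside the complexes, Coq6, which acts in ubiquinone synthesis, was at 15.2, 16.6, 15.2 and 16.4 CPM in TDP-43Q331K, against 13.3, 12.6, 14.4 and 11.8 CPM in WT. Its groups did not overlap, with a log2 fold change of 0.28 (edgeR adjusted p 0.110, DESeq2 adjusted p 0.0287). Coq4 and Coq3 of the same pathway had -0.19 and -0.18 (edgeR adjusted p 0.199 and 0.268). Ucp2, a carrier of the inner membrane, was at 16.1 ± 2.07 CPM in TDP-43Q331K and 12.9 ± 1.08 CPM in WT (SD, n = 4 each), a log2 fold change of 0.32 (edgeR adjusted p 0.152).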

How the data were processed

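Per the labels' protocols, oligo(dT) beads captured the cortex RNA, stranded libraries were made, and a NovaSeq X read them. Per the submitters' processing notes, the build was GRCm39 and the tools included R 4.3.1, edgeR 4.4.2 and STAR 2.7.6a. The sources used here do not give what counted the reads, or its annotation and strand setting. Unscaled counts per gene were deposited, per the file headers, with a second table of normalised signal. The deposited signal equals those counts divided by TMM-scaled library sizes, as checked from the values. Columns were matched to samples by library name, with 0 unmatched.

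Symbols and lengths came from GENCODE M21, matched by identifier for 15470 of 15693 genes, and promoters from RefSeq GRCm38.p6. Its build differs from that of the files, so the promoter coordinates are RefSeq's own. Counts were tested in R 4.3.3 with edgeR 4.0.16 (TMM, filterByExpr, which removed 0 genes, two-sided quasi-likelihood F-test, genotype only), adjusted by Benjamini-Hochberg over all genes at a threshold of 0.05. The common biological coefficient of variation was 11.25%, and no pair of libraries in a group was a copy of another (chi-square per degree of freedom 14.6 to 28.0). Close copies were found with BLAST 2.17.0. Alternatives were DESeq2 1.42.0, limma 3.58.1, other scalings and filters, a length offset, an Xist covariate, a replicate block and each library left out. The script was tested on simulated data. Named genes are all mitochondrially encoded members, the 3 nuclear members of each complex with the smallest p, the leading gene per length, tissue isoforms, members called by any tool and up to 3 genes of each pathway list with the smallest p; other named members were picked with their values in view. The values of 1 member, counted in the totals, are not reported here. The members, lists and rules were chosen with earlier results of these data known.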

Additional observations from a re-analysis of the deposited data

Results flagged for a closer look

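In 9 of 94 sets of 4 libraries examined, the highest or lowest library lay apart from the rest, with a gap to its nearest neighbour above Dixon's 95% critical value. Chance gives this in about 1 in 20 independent sets. These sets share the same libraries, and many of their genes moved together, so 9 of 94 cannot be read against that rate. WT replicate 3 was the high library in 4 genes, at 147.9 CPM for Cyc1, 136.5 CPM for Uqcrh, 98.79 CPM for Uqcrq and 3.59 CPM for Cox6a2. Over all 81 nuclear members, it stood apart in this way in 11, and the share over all genes is not given here. TDP-43Q331K replicate 2 was high for Atp5b (1024 CPM) and low for Atp5l (11.4 CPM). WT replicate 2 was low for mt-Nd3 (0.603 CPM). The mean log2 CPM of mitochondrially encoded minus nuclear members was apart in TDP-43Q331K replicate 2 (4.724) and in WT replicate 3 (4.70), low in both. This mean includes mt-Nd3, itself flagged and of low depth. Whether the 2 libraries stand apart without mt-Nd3 was not examined. Causes were not tested.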

How the results depend on the processing

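The number of genes called was 148, against 701 with DESeq2, 396 at a threshold of 0.10, 14 with the replicate block, 51 to 129 without 1 library and 26 without both WT replicate 3 and TDP-43Q331K replicate 2. Members called were 0 in all of these except DESeq2, which called 1, mt-Nd4 (log2 fold change -0.11). The replicate numbers do not pair the libraries: same-numbered libraries correlated at -0.376 to -0.015. The replicate block left 0 members called and 4 with an unadjusted p under 0.05. The share of all genes at that level under the block is not given here, so the 4 are not read as a result. The median log2 fold change of the mitochondrially encoded members was -0.018 with the length offset, and that of complex IV -0.156 to -0.032 without 1 library, lowest in size without WT replicate 3. The nuclear median was -0.11 to 0.014 without 1 library. Of 35 named members under 20 settings, 675 values kept direction and side of the threshold, 24 changed sign and 1 passed the threshold. Uqcrh was at 0.031 with the length offset and 0.0013 with library size only, mt-Nd2 at 6e-05 with the length offset, and Cox6a2 at -0.00145 with upper quartile scaling. Atp5b was at 0.013 with library size only, 0.00013 with limma-trend, 0.00017 with limma-voom and 0.00013 with the replicate block. Without 1 library, Atp5b ran from -0.033 to 0.051, Uqcrh from -0.066 to 0.076, Cox6a2 from -0.061 to 0.093, mt-Nd3 from -0.17 to 0.14, Cyc1 from -0.11 to 0.014 and Sdhc from -0.047 to 0.030. Without both named libraries, Atp5b was at 0.021, Sdhc at 0.015, Uqcrh at 0.024, Cox6a2 at 0.16 and mt-Nd3 at 0.19. The cause of these changes was not tested. The members of lowest depth, mt-Nd3, Cox4i2, Cox6b2 and Ndufa4l2, at about 1 to 2 CPM, had the widest intervals.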
